A study of Homo sapiens with 14 samples.

Results

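The comparison set 3 bulk RNA sequencing libraries labelled NCI-H1395, a lung adenocarcinoma cell line, against 3 labelled AGS, a gastric cancer cell line. These 6 of the 14 libraries of the series were chosen by cell line, regardless of siRNA. In each line 1 library came from cells with a control siRNA and 2 from cells with an siRNA against ADAR, the gene of an RNA-editing enzyme that turns adenosine into inosine where RNA is double-stranded. All 6 libraries came from cells that had received an siRNA, a small RNA duplex used to destroy the transcripts it pairs with. The other libraries came from the breast cancer lines MDA-MB-231 and BT-549. Each organ was represented by 1 line, so a difference between the organs and a difference between these 2 lines cannot be told apart. Whether the ADAR siRNA libraries 1 and 2 of each line came from separate cultures is not in the labels, so the p-values measure only the spread between these libraries.

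A carcinoma cell line keeps part of the transcriptional program of its tissue of origin. Epithelial cells hold together through cadherin, claudin and desmosome proteins, and factors such as GRHL2 and OVOL1 keep their genes active, while ZEB1, ZEB2, SNAI1 and TWIST1 repress them and accompany a mesenchymal program with vimentin filaments. NKX2-1 governs the surfactant genes of the lung alveolus. HNF4A, GATA4, GATA6 and the FOXA factors govern endodermal epithelium, and CDX2 the intestinal program, which gastric cells can acquire. HOX genes, arranged in clusters, record the position of a tissue along the body axis.

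Levels are given in CPM, counts scaled to a fixed library size, after TMM scaling, a correction for differences in library composition, in the order control siRNA, ADAR siRNA 1, ADAR siRNA 2. Library totals ran from 14858945 to 20963856 counts, so that 1 count was worth 0.0448 to 0.0624 CPM. Over 18568 genes, the correlation of log2 CPM was 0.983 to 0.987 between libraries of the same line and 0.793 to 0.807 between the lines. ADAR was at 410, 43.6 and 48.0 CPM in NCI-H1395 and at 809, 142 and 192 CPM in AGS. The ADAR siRNA libraries thus lay below the control in both lines. Immune and endothelial markers (PTPRC, CD3E, MS4A1 and CDH5) had 0 counts in all 6 libraries. Of 18 immune and stromal genes 8 were tested, and PECAM1 was higher in NCI-H1395 and COL1A1, LYZ, CSF1R and ACTA2 in AGS. The summed level of that list was 8.48 to 17.6 CPM in NCI-H1395 and 42.1 to 66.5 CPM in AGS, and COL1A1, a fibrillar collagen, made up 28.8 to 46.8 CPM of the latter and was not called between the control libraries alone.

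The libraries labelled NCI-H1395 did not carry the markers of lung epithelium. NKX2-1 was at 0.112, 0.179 and 0 CPM. SFTPA1, SFTPA2, SFTPC and SFTPD had 0 counts in all 3 libraries, and SFTPB reached at most 0.246 CPM. Of the 17 entries of the alveolar list 5 had enough counts to be tested, and none of them was called higher in NCI-H1395. ABCA3, a lipid transporter of lamellar bodies that other tissues also express, was at 120, 124 and 99.2 CPM against 126, 91.8 and 87.3 CPM in AGS (log2 difference 0.19 ± 0.19, edgeR adjusted p = 0.42). LAMP3, a lysosomal membrane protein of alveolar type II and dendritic cells, was at 6.41, 5.42 and 3.94 CPM against 35.8, 43.8 and 46.8 CPM, and was the 1 member called, higher in AGS (log2 difference -3.0 ± 0.27, adjusted p = 2.0e-06). NAPSA, an aspartic protease used to mark lung adenocarcinoma, stayed at or below 0.986 CPM in NCI-H1395 and did not pass the test. The summed level of the list was 148 to 175 CPM in NCI-H1395 and 182 to 193 CPM in AGS, most of it from ABCA3 and LPCAT1, a lipid enzyme. The club cell secretoglobins had at most 1 count in any library. Of 4 airway genes tested CAPS and TPPP3, known from ciliated cells, were higher in NCI-H1395 at 0.986 to 2.28 CPM, CYP2F1 was higher in AGS and 1 was not called. The calls for CAPS (adjusted p = 0.31) and CYP2F1 (adjusted p = 0.30) were lost between the control libraries alone. In bulk libraries fewer cells of a type and less RNA per cell cannot be told apart. The names of the lines below are therefore those of the labels, and no lung cell type is assigned.

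AGS lacked most markers of the secretory stomach and carried several of the intestine. TFF2, MUC6, LIPF, ATP4B and the pepsinogen genes PGA3, PGA4 and PGA5 had 0 counts in all 6 libraries. CTSE, the gene of cathepsin E, an aspartic protease of gastric surface cells, was the exception at 154, 123 and 185 CPM against 0.0558, 0.0897 and 0 CPM in NCI-H1395.

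Of the 18568 genes tested with edgeR's quasi-likelihood test at a Benjamini-Hochberg adjusted p under 0.05, 10555 differed between the lines, which is 56.8% of all genes tested. NCI-H1395 was higher in 5582 of them (30.1%) and AGS in 4973 (26.8%). A difference of at least 4-fold was called for 5085 genes (27.4%), 2795 higher in NCI-H1395 (15.1%) and 2290 higher in AGS (12.3%). The 3 libraries of each line did not overlap in 63.7% of all genes tested. A list whose share of calls is near 56.8% therefore does not stand out from the genes at large. A gene high in 1 line alone passed the count filter through that line and had to differ, so in lists with untested members the counts among those tested describe these genes and support no direction of the list. The median log2 difference of all genes was 0.07, and 0.22 when libraries were scaled by their totals.

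The same contrast was taken between the 2 control libraries alone, with the spread estimated from the ADAR siRNA pairs of the 4 lines of the series. There 6388 of 23959 genes tested were called (26.7%), 3528 higher in NCI-H1395 (14.7%) and 2860 higher in AGS (11.9%). The control libraries are among the 6, so this check is not independent of them. Of the 10555 genes called over all 6, 10530 (99.8%) had the same direction in the ratio of the control libraries, 6222 (58.9%) were also called there, and 0 were called the opposite way. Whether the line difference itself depended on the siRNA was tested as an interaction. By edgeR 0 of 23959 genes were called (0%), with 838 at an unadjusted p under 0.05 and a smallest adjusted p of 0.773, and DESeq2 called 12.

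**Figure D1:**
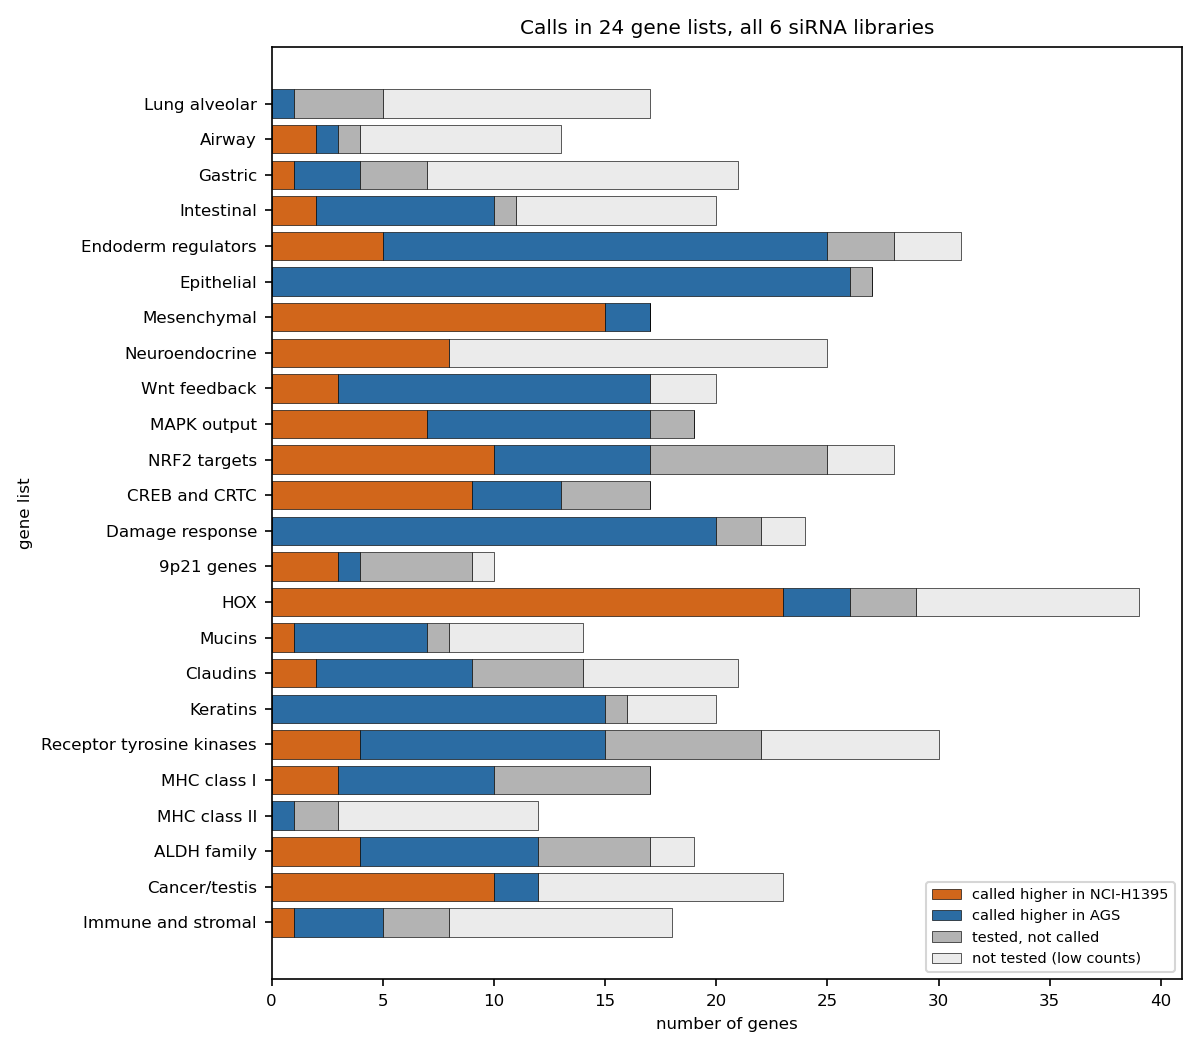
Stacked bars give the number of genes in each of 24 gene lists (horizontal axis) that were called higher in NCI-H1395, called higher in AGS, tested without a call, or not tested for low counts, over all 6 siRNA libraries. The epithelial list is almost wholly on the AGS side (26 of 27). In NCI-H1395 23 of 39 HOX genes and 10 of 23 cancer/testis genes were called higher, with 10 and 11 not tested. Of all genes tested 30.1% were called higher in NCI-H1395 and 26.8% in AGS.

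Epithelial genes were almost all higher in AGS. Of 27 epithelial genes, all tested, 26 were higher in AGS and 0 in NCI-H1395, with a median log2 difference of -7.29, and the control libraries alone also called 26 and 0, of which 25 were shared. KRT7, a simple-epithelium keratin, was the 1 gene without a call (adjusted p = 0.056) and was called between the control libraries alone (0.027), where the tight junction gene CLDN3 was not (0.058). Over all 6 libraries 96.3% of the list was called, against 56.8% of all genes. The summed level of the list was 9760 to 12900 CPM in AGS and 772 to 889 CPM in NCI-H1395.

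EPCAM, the epithelial adhesion molecule, was at 421, 381 and 332 CPM in AGS and at 0.335, 0.583 and 0.493 CPM in NCI-H1395 (log2 difference -9.61 ± 0.30, adjusted p = 2.2e-09). SPINT1, an inhibitor of membrane serine proteases, was at 642, 496 and 584 CPM in AGS and at 1.0, 0.986 and 0.739 CPM in NCI-H1395 (-9.28 ± 0.27). ST14, which encodes matriptase, a protease that SPINT1 inhibits, was at 548, 387 and 652 CPM against 0.279, 0.493 and 0.555 CPM (-10.21 ± 0.36). In these genes the lowest AGS library exceeded the highest NCI-H1395 library more than 100-fold. CDH1, which encodes E-cadherin, was at 41.6, 44.5 and 40.4 CPM in AGS and at 0, 0.134 and 0.739 CPM in NCI-H1395 (-7.29 ± 0.59, adjusted p = 1.8e-06). CLDN7, a tight junction claudin, had 255, 158 and 208 CPM in AGS and 0 counts in the 3 NCI-H1395 libraries, at least 3889-fold higher against a floor of 3 counts over the group. RAB25, a small GTPase of epithelial vesicle recycling, had 229, 183 and 214 CPM in AGS and 0 counts in NCI-H1395, at least 3928-fold higher. Such bounds cover counting error only.

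Promoter sequences are shown for 3 epithelial genes, because CAGGTG, with CACCTG as its other strand, is the sequence that ZEB1 and SNAI1 are known to bind and ZEB1 differed 52.1-fold between the lines. The sequences are RefSeq promoters of GRCh38.p14, running from 250 bases before to 50 after the gene start, which were given for 12 of the 27 epithelial genes, and capitals mark the motif on either strand.
RAB25, chr1:156060910-156061209, plus strand: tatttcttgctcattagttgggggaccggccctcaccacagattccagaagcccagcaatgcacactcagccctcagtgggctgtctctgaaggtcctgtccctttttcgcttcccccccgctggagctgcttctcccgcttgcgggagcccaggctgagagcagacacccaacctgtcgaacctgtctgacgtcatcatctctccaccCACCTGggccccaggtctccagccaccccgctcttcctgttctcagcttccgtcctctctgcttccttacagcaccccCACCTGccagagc
CRB3, chr19:6464021-6464320, plus strand: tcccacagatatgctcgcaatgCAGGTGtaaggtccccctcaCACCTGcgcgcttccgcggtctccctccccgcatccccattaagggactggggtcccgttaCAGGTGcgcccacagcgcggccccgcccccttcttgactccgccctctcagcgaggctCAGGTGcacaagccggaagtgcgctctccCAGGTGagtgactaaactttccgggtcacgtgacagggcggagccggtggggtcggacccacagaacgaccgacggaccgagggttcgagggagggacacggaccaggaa
DSP, chr6:7541421-7541720, plus strand: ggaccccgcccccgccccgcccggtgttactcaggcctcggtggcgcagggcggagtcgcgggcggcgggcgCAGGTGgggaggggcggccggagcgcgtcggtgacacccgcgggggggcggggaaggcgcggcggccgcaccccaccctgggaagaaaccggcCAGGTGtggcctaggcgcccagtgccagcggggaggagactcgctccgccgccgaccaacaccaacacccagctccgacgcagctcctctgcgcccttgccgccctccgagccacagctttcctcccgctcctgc
The RAB25 promoter held 2 matches, that of CRB3, an apical polarity protein, held 5, and that of DSP, the desmosomal plaque protein desmoplakin, held 2. In all, 5 of the 12 epithelial promoters (41.7%) held the motif, against 5625 of 27305 promoters of the same length (20.6%) and 19% of those of tested genes. Among genes at least 4-fold higher in AGS the share was 28.1%, and among those at least 4-fold higher in NCI-H1395 it was 18.7%. The promoters shown were taken from those with a match. CLDN4, CLDN7, GRHL1, JUP, KRT8, SPINT1 and TJP3 held none, and SNAI1 itself was higher in AGS. A match describes these letters only, and binding was not measured.

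Mesenchymal genes showed the opposite pattern. Of 17 genes, all tested, 15 were higher in NCI-H1395 and 2 in AGS, with a median log2 difference of 7.19, or 5.70 when genes at 0 in a line were set at their bound. The control libraries alone called 11 and 2. Over all 6 libraries 100% of the list was called, against 56.8% of all genes. The summed level was 4210 to 7160 CPM in NCI-H1395 and 84.2 to 100 CPM in AGS.

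VIM, which encodes vimentin, was at 2487, 1519 and 2588 CPM in NCI-H1395 and at 3.93, 8.65 and 5.45 CPM in AGS (log2 difference 8.54 ± 0.39, adjusted p = 9.3e-09). ZEB1, a repressor of CDH1, was at 69.8, 78.8 and 89.8 CPM against 1.25, 1.84 and 1.48 CPM (5.70 ± 0.25). FBN1, the microfibril protein fibrillin, was at 107, 135 and 157 CPM against 0.250, 0.675 and 0.829 CPM (7.84 ± 0.30). None of these genes overlapped between the lines, which held for 63.7% of all genes tested, and they were named for their small p. AXL, a receptor tyrosine kinase for GAS6, reached 2845, 1905 and 2454 CPM in NCI-H1395 and 8.99, 10.6 and 9.65 CPM in AGS (7.93 ± 0.26, adjusted p = 2.4e-09). The list was not uniform in direction. SNAI1 and CDH11, a mesenchymal cadherin, were the 2 members higher in AGS, CDH11 at 8.24, 14 and 20.4 CPM against 0 counts in NCI-H1395.

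**Figure D2:**
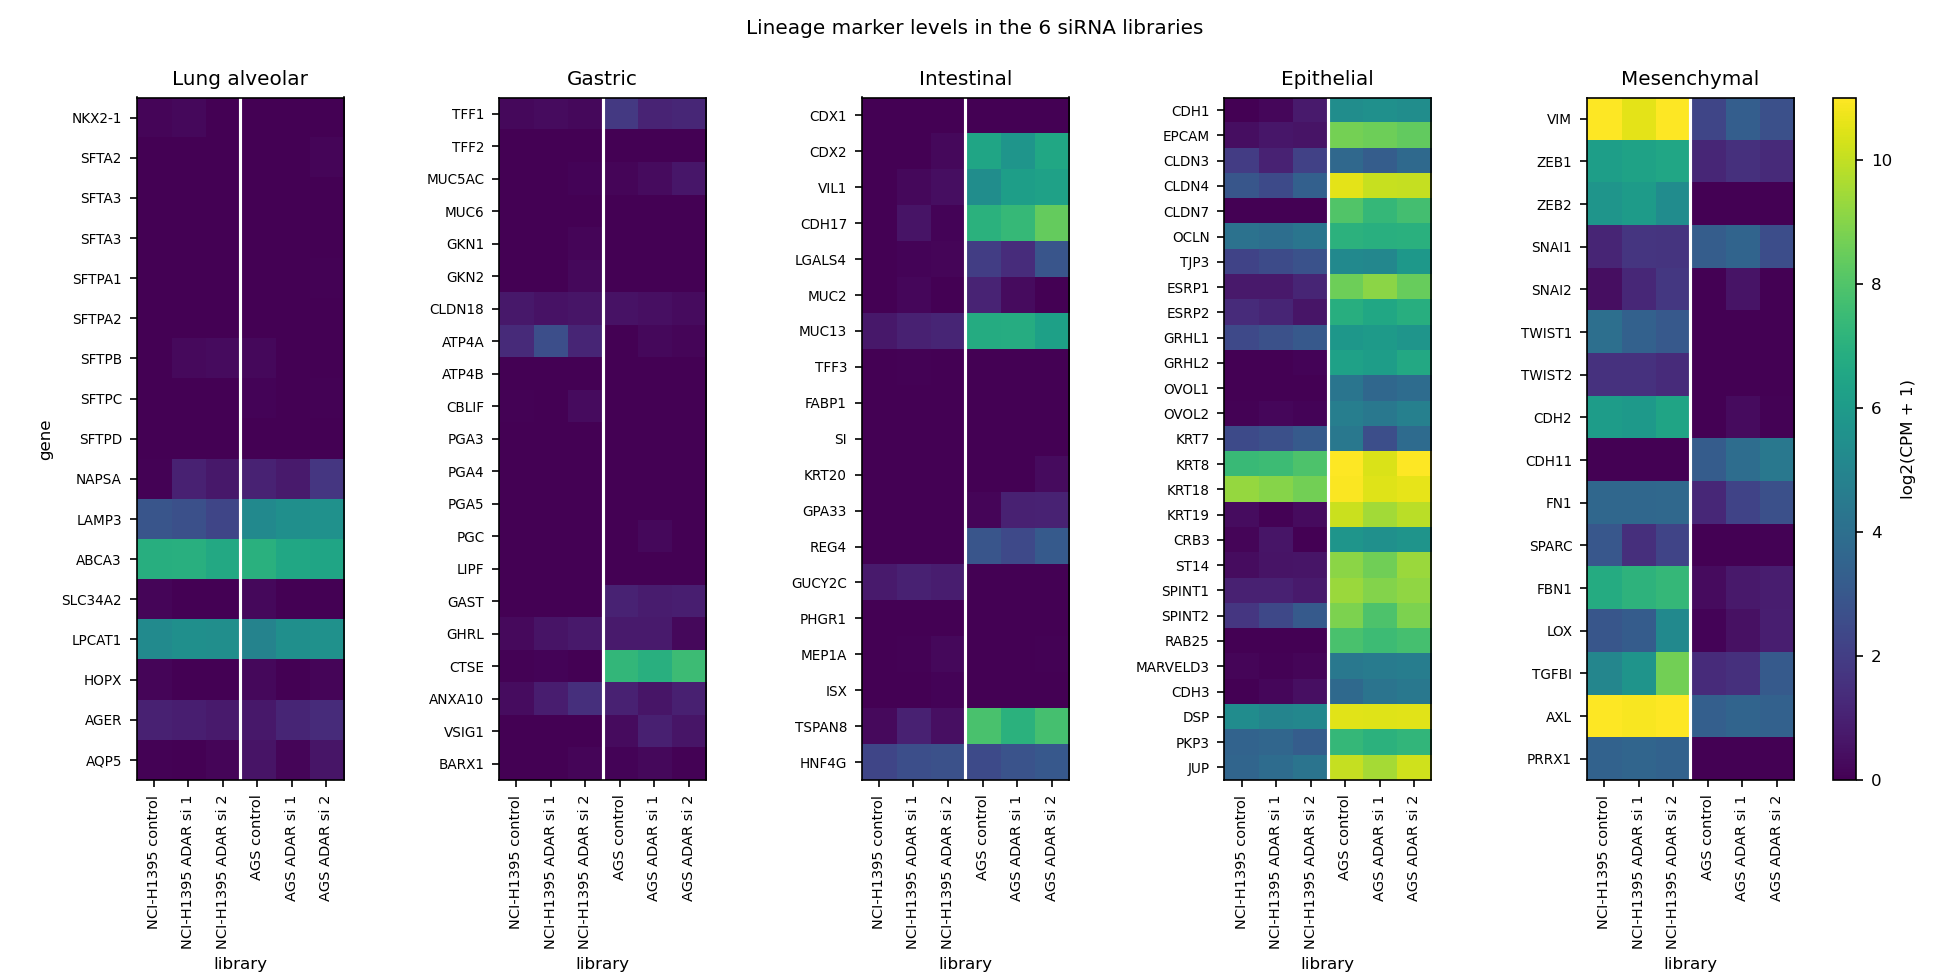
Heat maps give log2(CPM + 1) for genes of the lung alveolar, gastric, intestinal, epithelial and mesenchymal lists (rows) in the 6 libraries (columns), with the white line between NCI-H1395 and AGS. The alveolar and gastric panels are dark in both lines apart from a few rows such as ABCA3 and CTSE, while the epithelial panel is bright in AGS and the mesenchymal panel in NCI-H1395, where VIM reaches 2588 CPM.

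The intermediate filament genes had a different leading member in each line. Keratin heterodimers fill epithelial cells, and vimentin takes their place in mesenchymal cells. Per kilobase of exon, the mean levels in NCI-H1395 were led by VIM at 425 CPM, followed by KRT18 at 166, the neuronal filament gene INA at 38 and KRT8 at 29.4. In AGS they were led by KRT18 at 530 CPM per kilobase, followed by KRT19 at 393 and KRT8 at 275, with VIM at 1.16. Of 16 keratin genes tested 15 were higher in AGS and 0 in NCI-H1395, and the control libraries alone called 16 and 0. Over all 6 libraries 93.8% of the keratins tested were called, against 56.8% of all genes. KRT8 and KRT18 remained well expressed in NCI-H1395. KRT8 was there at 173, 187 and 246 CPM against 2134, 1326 and 2215 CPM in AGS (log2 difference -3.23 ± 0.25). KRT19 did not, at 0.279, 0.0448 and 0.246 CPM against 1098, 717 and 942 CPM (-12.28 ± 0.39, adjusted p = 2.2e-09). KRT17, a keratin of basal and stressed epithelium, was at 50.7, 31.3 and 53.3 CPM in AGS and had reads in 1 NCI-H1395 library, 0.269 CPM. KRT23 was at 22.4, 29.8 and 29.8 CPM in AGS and at 0 counts in NCI-H1395, at least 515-fold higher.

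Regulators of endodermal epithelium were largely on the AGS side. Among those tested 89.3% were called, against 56.8% of all genes. Of 31 genes 28 were tested, 20 higher in AGS, 5 in NCI-H1395 and 3 without a call (median log2 difference -3.34), and the control libraries alone called 18 and 5. HNF4A, a nuclear receptor of liver, gut and kidney epithelium, was at 88.8, 91.0 and 102 CPM in AGS and had 2 counts in all of NCI-H1395, a ratio of 2656 (95% counting interval 735 to 21938). ELF3, an epithelial ETS factor, was at 288, 234 and 267 CPM against 0.112, 0.314 and 0.246 CPM (-10.12 ± 0.33, adjusted p = 2.4e-09). KLF5, a zinc finger factor of proliferating gut epithelium, was at 636, 488 and 496 CPM against 15.8, 18.8 and 22 CPM (-4.84 ± 0.24). HNF4A and ELF3 thus stayed at or below 0.314 CPM in NCI-H1395, while KLF5 kept a measurable level.

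The FOXA and GATA factors followed the same direction with different sizes. FOXA3 was at 59.3, 58.8 and 76.1 CPM in AGS against 0.112, 1.03 and 0.924 CPM (-6.61 ± 0.42). FOXA1 was at 35.3, 33.2 and 34.7 CPM against 3.79, 2.38 and 2.71 CPM (-3.56 ± 0.26), and FOXA2 at 12.6, 12.4 and 12.3 CPM against 2 counts in all, a ratio of 350 (counting interval 96.5 to 2897). Of the GATA factors, GATA4 was at 12.9, 9.51 and 11.8 CPM in AGS and at 0 counts in NCI-H1395 (at least 215-fold higher), while GATA6 was well expressed in both lines. GATA6 was at 159, 184 and 166 CPM in AGS and at 34.1, 71.6 and 44.0 CPM in NCI-H1395 (-1.80 ± 0.23, adjusted p = 4.4e-05). SOX2, a factor of foregut and stem cells, was low in both, at 2.81, 3.56 and 5.27 CPM against 0.0558, 0.359 and 0.493 CPM (-3.77 ± 0.55). The 5 regulators higher in NCI-H1395 were HHEX, FOXP2, IRX3, TBX2 and TBX3, of which TBX2 and TBX3 are T-box factors known from heart and limb development. IRX3 was at 13.4, 14.1 and 12.5 CPM in NCI-H1395 and at 0 counts in AGS.

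Of 20 intestinal genes 11 were tested, 8 higher in AGS, 2 in NCI-H1395 and 1 without a call, and the control libraries alone called 7 and 1. Over all 6 libraries 90.9% of those tested were called, against 56.8% of all genes. CDX2, the intestinal homeobox factor, was at 86.6, 52.5 and 91.8 CPM in AGS. It had 3 counts in NCI-H1395, a ratio of 1450 (counting interval 496 to 7037). Its paralog CDX1 had 0 counts in all 6 libraries. VIL1, the microvillus protein villin, was at 41.0, 70.7 and 78.1 CPM against 0, 0.179 and 0.308 CPM (-8.62 ± 0.41), and MUC13, a transmembrane mucin, at 108, 111 and 74.2 CPM against 0.613, 1.03 and 1.23 CPM (-6.67 ± 0.32, adjusted p = 1.5e-08). FABP1, SI and TFF3, genes of the differentiated enterocyte and goblet cell, had at most 1 count in any library. Other list members had reads in AGS. With the control libraries of the 4 lines scaled together, the AGS control held CDH17 at 120 CPM, REG4 at 6.02 CPM and MUC2 at 1.05 CPM. The NCI-H1395 control held each of them at 0 CPM. GUCY2C, the intestinal guanylate cyclase receptor, was 1 of the 2 members higher in NCI-H1395, at 0.725, 0.986 and 0.863 CPM against 0 counts in AGS, a call lost between the control libraries (adjusted p = 0.070).

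Of 21 gastric genes 7 were tested, 3 higher in AGS, 1 in NCI-H1395 and 3 without a call (57.1% called, near the 56.8% of all genes). CTSE gave a ratio of 2906 (counting interval 994 to 14094) from the levels above, and GAST, the gastrin gene, was at 1.06, 0.798 and 0.888 CPM in AGS and at 0 counts in NCI-H1395. TFF1, a secreted trefoil peptide of surface mucous cells, was at 2.5, 1.17 and 1.30 CPM against 0.167, 0.269 and 0.185 CPM (-2.86 ± 0.62, adjusted p = 0.0020). The gene higher in NCI-H1395 was ATP4A, the catalytic subunit of the gastric proton pump, at 1.45, 5.20 and 1.17 CPM against 0, 0.184 and 0.118 CPM (4.68 ± 0.83), while its partner ATP4B had 0 counts everywhere. The call for GAST was lost between the control libraries alone (adjusted p = 0.064).

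Mucins and claudins were called in both directions. Of 14 mucin genes 8 were tested, 6 higher in AGS, 1 in NCI-H1395 and 1 without a call (87.5% called, against 56.8% of all genes). Among those tested 2 had 0 counts in NCI-H1395 and 1 in AGS, so they passed the filter through the other line alone. MUC1 was at 53.6, 39.8 and 120 CPM in AGS against 2.29, 1.88 and 2.10 CPM (-5.07 ± 0.43). MUC15, a small transmembrane mucin, was the 1 higher in NCI-H1395, at 11, 11.1 and 23.2 CPM against 0 counts in AGS, at least 238-fold higher. Of 14 claudin genes tested 7 were higher in AGS, 2 in NCI-H1395 and 5 were not called (64.3% called, near the share of all genes), and the control libraries alone called 5 and 1. CLDN4 was at 1483, 1067 and 1051 CPM in AGS against 6.64, 4.53 and 9.43 CPM (-7.44 ± 0.33), and CLDN6, a claudin of embryonic epithelium, at 292, 175 and 288 CPM against 0.446, 0.224 and 0.370 CPM (-9.51 ± 0.35). CLDN15, a pore-forming claudin, went the other way at 26.5, 29.7 and 31.9 CPM in NCI-H1395 against 6.18, 7.98 and 11.3 CPM (1.81 ± 0.25), as did CLDN10.

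Several neuroendocrine genes were expressed in NCI-H1395, while INSM1, a regulator of that lineage, had 0 counts in all 6 libraries. Of 25 genes 8 were tested and called higher in NCI-H1395, 6 of them also between the control libraries alone, and 4 of the 8 had 0 counts in AGS, so that they passed the filter through NCI-H1395 alone. UCHL1, a ubiquitin hydrolase of neurons, was at 537, 574 and 511 CPM in NCI-H1395 and at 0 counts in AGS, at least 8924-fold higher. SNAP25, a protein of synaptic vesicle fusion, was at 33.6, 19.4 and 18.9 CPM against 0 counts (at least 390-fold), and CPE, the prohormone-processing carboxypeptidase, at 13.9, 15 and 9.12 CPM against 0 counts (at least 213-fold). DLL3, an inhibitory Notch ligand of neuroendocrine tumors, was at 15.6, 14.6 and 13.4 CPM against 2 counts in AGS. The share called of those tested was 100%, against 56.8% of all genes. The other 17 members had too few counts to test.

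Wnt feedback and target genes are induced by beta-catenin, and some of them restrain the pathway. Of 17 tested 14 were higher in AGS and 3 in NCI-H1395 (median log2 difference -4.48). The share called was 100%, against 56.8% of all genes. The control libraries alone called 12 and 3. RNF43, a ubiquitin ligase that removes Wnt receptors, was at 124, 98.6 and 109 CPM in AGS and at 0 counts in NCI-H1395, at least 2077-fold higher. LGR5, the stem cell receptor for R-spondin, was at 94.2, 63.2 and 134 CPM against 0, 0.179 and 0.246 CPM (-9.37 ± 0.52). SP5, a transcription factor induced by beta-catenin, was at 88.3, 57.8 and 80.7 CPM against 0.446, 0.179 and 0.431 CPM (-7.77 ± 0.34, adjusted p = 8.2e-09). AXIN2, a scaffold of beta-catenin degradation, was at 375 CPM or more in 2 AGS libraries and 175 CPM in the other, and at 1.39 to 3.0 CPM in NCI-H1395. The 3 members higher in NCI-H1395 were NKD2, LEF1, a DNA-binding partner of beta-catenin, and CD44, a hyaluronan receptor. CD44 was at 740, 553 and 984 CPM in NCI-H1395 against 27.2, 31.7 and 30.2 CPM in AGS (4.68 ± 0.26).

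The SP5 promoter is shown because it was the 1 of the 11 Wnt promoters in the table that held CTTTGAT, with ATCAAAG as its other strand, the sequence that LEF1 and the TCF factors are known to bind.
SP5, chr2:170715087-170715386, plus strand: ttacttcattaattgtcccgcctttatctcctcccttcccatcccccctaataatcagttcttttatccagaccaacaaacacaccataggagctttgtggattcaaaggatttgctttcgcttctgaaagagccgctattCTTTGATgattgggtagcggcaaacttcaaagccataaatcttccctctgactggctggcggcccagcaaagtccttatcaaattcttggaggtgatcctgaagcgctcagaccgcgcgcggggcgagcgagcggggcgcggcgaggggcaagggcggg
The motif, in capitals, stood in 2.64% of all 27305 promoters and in 1.48% of those of tested genes. No match in the other 10 says only that these letters are not in that window.

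Many HOX genes were higher in NCI-H1395. Among those tested 89.7% were called, against 56.8% of all genes. Of 39 genes 29 were tested, 23 higher in NCI-H1395, 3 in AGS and 3 without a call, and the control libraries alone called 21 and 1. The 4 clusters differed in how far AGS was silent. In the HOXA cluster (hg38 chromosome 7, 27092993 to 27200091) all 9 genes tested were higher in NCI-H1395, and the 11 genes summed to 45.2, 35.3 and 39.0 CPM there against 0.125, 0 and 0.355 CPM in AGS, where the whole cluster had 8 counts. In the HOXD cluster (chromosome 2, 176092721 to 176190907) all 5 tested were higher in NCI-H1395, with 21, 18 and 11.9 CPM against 3 counts in AGS. Both lines used the other 2 clusters. HOXB (chromosome 17, 48528526 to 48728750) summed to 425, 425 and 372 CPM in NCI-H1395 and to 157, 163 and 228 CPM in AGS, with 4 genes higher in NCI-H1395, 2 in AGS and 3 not called. HOXC (chromosome 12, 53938831 to 54056030) summed to 151, 149 and 107 CPM against 27.7, 27.1 and 36.5 CPM, with 5 and 1.

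Within HOXB the lines differed by gene. HOXB2 was at 119, 102 and 79.9 CPM in NCI-H1395 and had 1 count in AGS, a ratio of 4982 (counting interval 894 to 196810). HOXB4 was at 87.8, 75.5 and 58.5 CPM against 1.5, 0.736 and 1.72 CPM (5.80 ± 0.32), and HOXB7 at 54.1, 48.6 and 47.8 CPM against 2.06, 3.56 and 2.60 CPM (4.20 ± 0.27). HOXB5 and HOXB6, which lie between them, were the members higher in AGS, HOXB6 at 33.9, 25 and 53 CPM against 15.7, 19.2 and 23 CPM. HOXB9 reached 90.02 CPM in NCI-H1395 and 114 CPM in AGS and was not called (adjusted p = 0.098). In HOXC, HOXC8 was at 48.9, 57.3 and 40.5 CPM in NCI-H1395 against 1.5, 1.47 and 1.18 CPM (5.14 ± 0.29), and HOXC13 was the member higher in AGS. Genes on both strands overlap within these clusters. No source used here says whether counting used strand, so their reads could not be told apart.

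**Figure D3:**
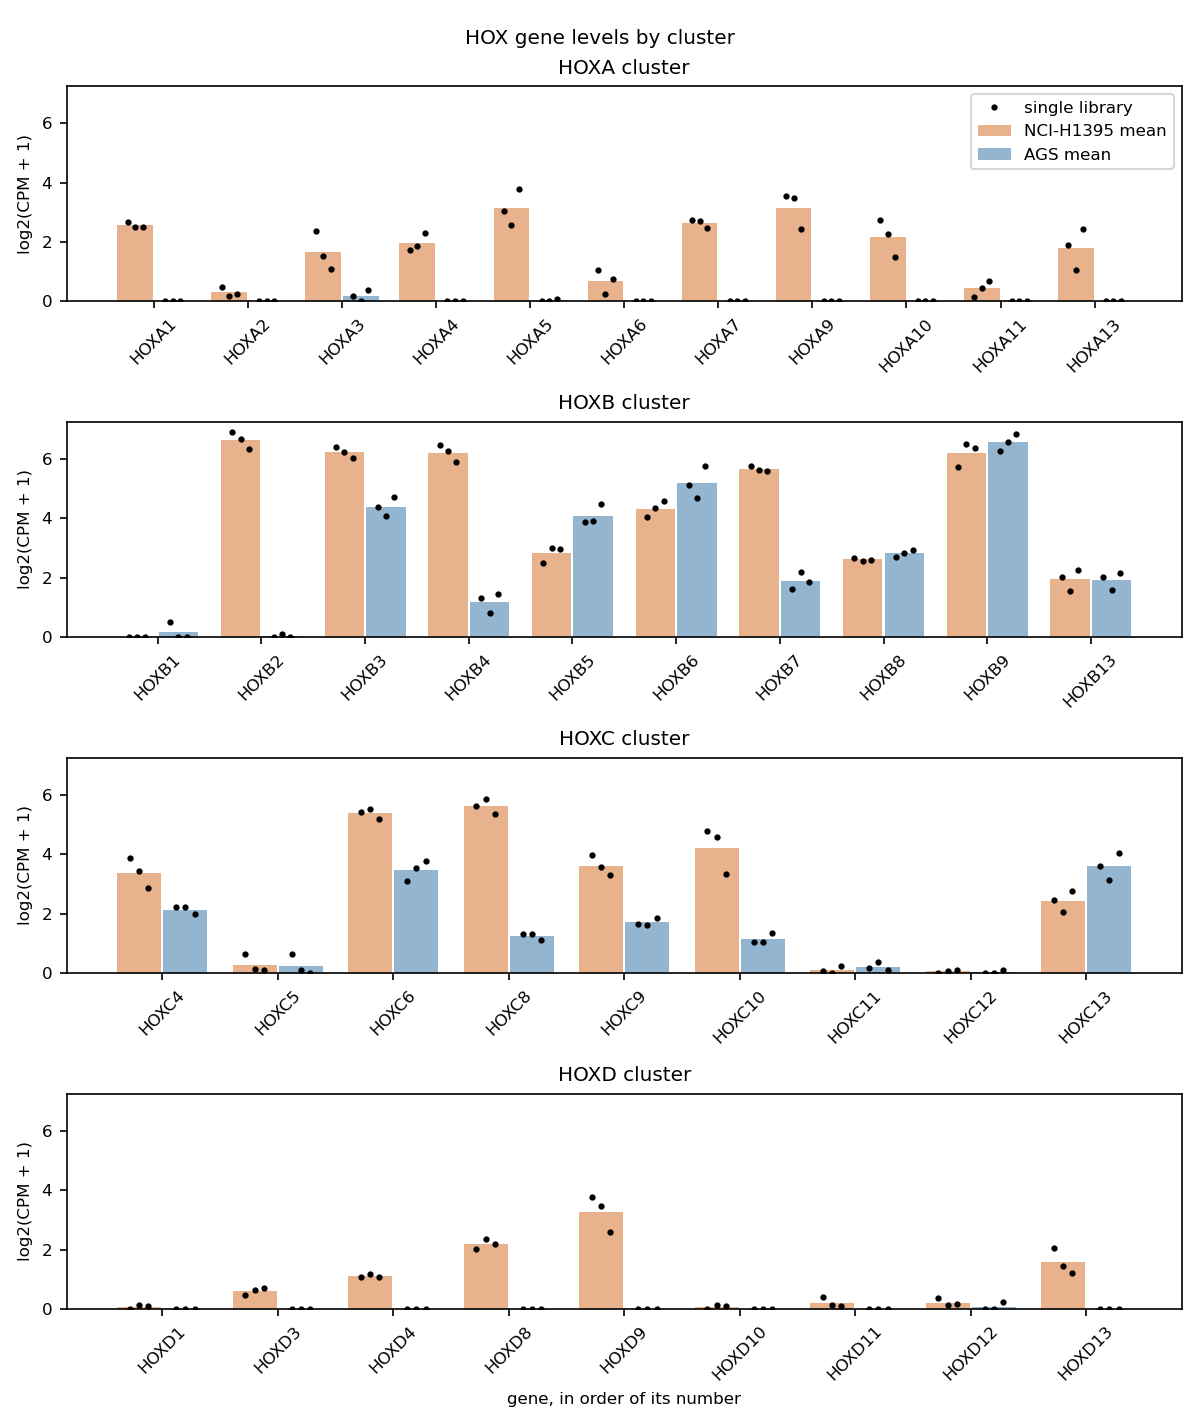
Bars give the mean of log2(CPM + 1) over the 3 libraries of each line for every HOX gene in order of its number, 1 panel a cluster, with points for single libraries. AGS bars are at or near 0 throughout HOXA and HOXD (8 and 3 counts in all), while both lines have bars in HOXB and HOXC.

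Several cancer/testis genes, normally silent outside the germ line, were expressed in NCI-H1395. Among those tested 100% were called, against 56.8% of all genes. Of 23 genes 11 had too few counts to test, 10 were higher in NCI-H1395 and 2 in AGS, most of them passing the count filter through 1 line, and the control libraries alone called 10 and 1. MAGEA4 was at 517, 363 and 466 CPM in NCI-H1395 and had 1 count in AGS, and PRAME was at 139, 133 and 119 CPM against 0.500, 0.859 and 0.474 CPM (7.72 ± 0.30, adjusted p = 3.5e-09). MAGEA10 was at 47.6, 63.3 and 58.5 CPM against 2 counts in AGS, and MAGEA1 at 67.0, 57.6 and 67.6 CPM against 1.12, 1.04 and 0.533 CPM (6.16 ± 0.31). The 2 members higher in AGS, MAGEC1 and MAGEC2, stayed at or below 2.09 CPM there. MAGEA genes are close copies of each other, and their counts could have been shared between them.

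**Figure D4:**
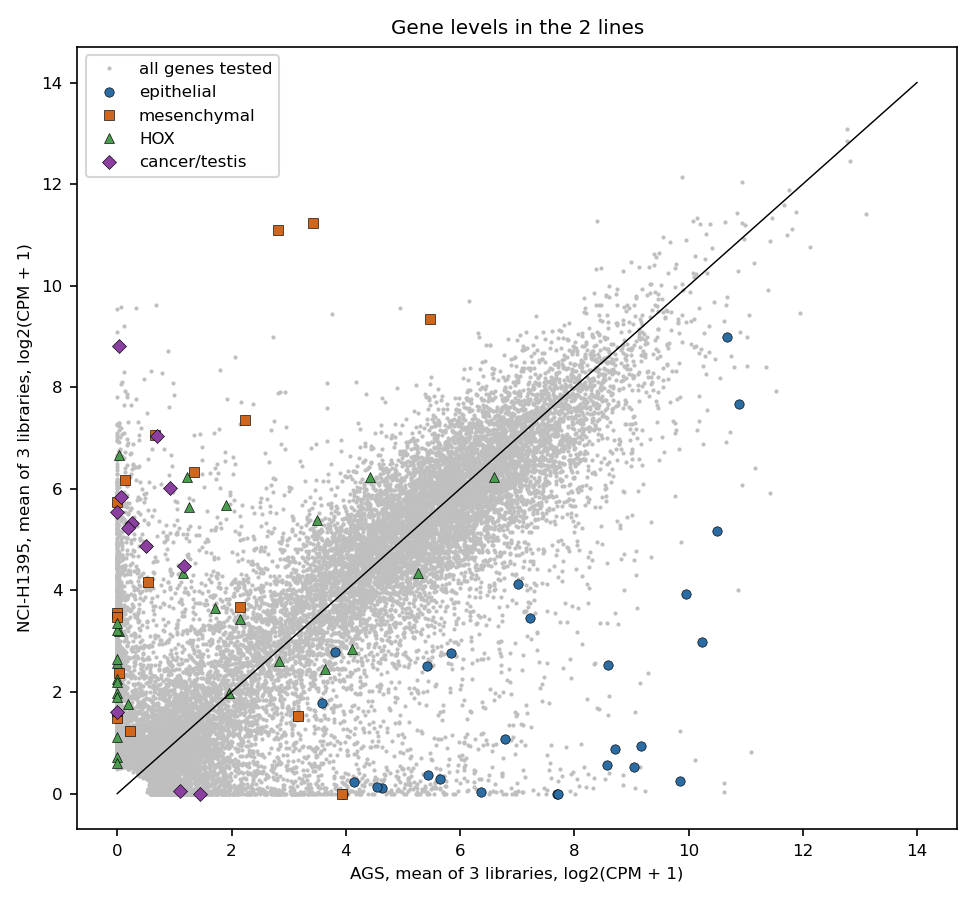
Each point is a gene tested, at log2(CPM + 1) of its mean over the 3 AGS libraries (horizontal axis) and over the 3 NCI-H1395 libraries (vertical axis), with the line of equal levels. Epithelial genes lie below the line with CLDN7 and RAB25 at 0 on the vertical axis, and most mesenchymal, HOX and cancer/testis genes lie above it, many at 0 on the horizontal axis.

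Genes of the DNA damage and growth arrest response were mostly higher in AGS. Of 22 damage response genes tested 20 were higher in AGS, 0 in NCI-H1395 and 2 were not called (median log2 difference -1.82). The share called was 90.9%, against 56.8% of all genes. Between the control libraries alone 12 were higher in AGS and 1, CCNG1, in NCI-H1395. CDKN1A, the cell cycle inhibitor p21, was at 545, 464 and 530 CPM in AGS against 108, 112 and 92.6 CPM in NCI-H1395 (-2.30 ± 0.19). MDM2, a ubiquitin ligase of that response, was at 390, 481 and 360 CPM against 90.4, 63.7 and 71.0 CPM (-2.46 ± 0.21, adjusted p = 1.3e-06). GDF15, a secreted stress cytokine, was at 2852, 1417 and 1304 CPM against 10.4, 22.7 and 12.1 CPM (-6.87 ± 0.46), and BTG2, an antiproliferative factor, at 84.7, 138 and 206 CPM against 1.95, 1.70 and 2.34 CPM (-6.10 ± 0.31). The log2 differences of the genes called ran from -0.62 to -6.87.

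Of 9 genes tested at 9p21, 3 were higher in NCI-H1395, 1 in AGS and 5 were not called (44.4% called, against 56.8% of all genes). CDKN2A (hg38 chromosome 9, 21967752 to 21995301), which encodes the inhibitors p16 and p14ARF, was at 87.6, 118 and 91.7 CPM in NCI-H1395 and at 0 counts in AGS, at least 1651-fold higher. Its antisense neighbour CDKN2B-AS1 was at 12, 11.2 and 9.49 CPM against 2 counts, with reads that overlapping genes could share. The adjoining CDKN2B and MTAP were expressed in both lines and were among the 5 not called. CDKN2B was at 40.6, 60.5 and 119 CPM in NCI-H1395 and at 37.5, 38.5 and 106 CPM in AGS, with ADAR siRNA 2 highest in each line. DMRTA1 was higher in NCI-H1395 and KLHL9 in AGS, at 81.4, 120 and 90.2 CPM against 37.4, 36.4 and 39.2 CPM (-1.36 ± 0.20). The call for DMRTA1 was lost between the control libraries alone (adjusted p = 0.22).

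Growth factor receptors and the outputs of MAPK signalling went both ways. Of 22 receptor tyrosine kinases tested 11 were higher in AGS, 4 in NCI-H1395 (AXL, FGFR1, IGF1R and KDR) and 7 were not called. This share of 68.2% called is to be read against 56.8% of all genes, and 8 of the 30 listed were not tested. FGFR1 was at 174, 196 and 169 CPM in NCI-H1395 against 0.312, 0.675 and 0.296 CPM (8.70 ± 0.32, adjusted p = 3.0e-09), while FGFR2, its paralog in epithelium, was at 27.2, 27.0 and 19.8 CPM in AGS against 0.669, 0.0897 and 0.123 CPM (-6.51 ± 0.48). Of these paralogs 1 was thus the higher in each line. MST1R, an epithelial receptor related to MET, was at 262, 182 and 224 CPM in AGS against 4.85, 4.21 and 4.56 CPM (-5.60 ± 0.22). Of 19 MAPK output genes 10 were higher in AGS, 7 in NCI-H1395 and 2 were not called (89.5% called, against 56.8% of all genes). The phosphatases DUSP4 and DUSP5, which switch off ERK, differed in opposite directions. DUSP4 was at 698, 665 and 508 CPM in AGS against 3.01, 4.21 and 5.24 CPM (-7.24 ± 0.29), and DUSP5 at 94.5, 192 and 187 CPM in NCI-H1395 against 0.500, 0.123 and 0.237 CPM (9.02 ± 0.42). SPRED3, an inhibitor of RAS signalling, was at 58.7, 94.3 and 73.1 CPM in NCI-H1395 against 13.8, 15.8 and 17.7 CPM (2.24 ± 0.21), and EPHA4, an ephrin receptor, at 148, 98.5 and 123 CPM in AGS against 2.06, 2.24 and 1.79 CPM (-5.90 ± 0.25).

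Genes of the CREB coactivators and their targets, which respond to cyclic AMP and to the loss of the kinase STK11, were higher in NCI-H1395 in 9 of 17 and in AGS in 4, a share of calls (76.5%) to be read against 56.8% of all genes. The split of calls differed between the control libraries alone, where fewer genes were called with 1 library a side. All 13 genes called over the 6 libraries kept their direction in the ratio of the control libraries. PDE4B, a cyclic AMP phosphodiesterase, was at 17.5, 14 and 26.9 CPM in NCI-H1395 against 0, 0.123 and 0.296 CPM (7.06 ± 0.58). SIK1, a kinase induced by CREB, was at 5.18, 5.64 and 7.75 CPM in AGS against 0 counts, and PTGS2, cyclooxygenase 2, at 9.55, 20.5 and 11.6 CPM against 0.112, 2.02 and 0.863 CPM (-3.97 ± 0.53). NR4A2, an immediate early nuclear receptor, was at 15.4, 46.0 and 27.5 CPM in NCI-H1395 against 6.93, 7.61 and 4.38 CPM (2.14 ± 0.37), a call lost between the control libraries (adjusted p = 0.10). STK11 itself was not called, at 85.4 to 115 CPM in NCI-H1395 and 61.5 to 96.4 CPM in AGS.

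NRF2 target genes, which handle oxidants, had no common direction. Of 25 tested 10 were higher in NCI-H1395, 7 in AGS and 8 were not called (median log2 difference 0.32, against 0.07 for all genes). The share called was 68%, against 56.8% of all genes. ME1, the NADPH-producing malic enzyme, was at 7.08, 11.3 and 16.0 CPM in NCI-H1395 and had 3 counts in AGS, and NR0B1, an orphan nuclear receptor, was at 3.35, 9.68 and 4.44 CPM against 0 counts, at least 101-fold higher. GPX2, the glutathione peroxidase of gut epithelium, was at 7.06, 6.75 and 4.74 CPM in AGS against 0.613, 0.448 and 0.431 CPM (-3.62 ± 0.42). Aldehyde dehydrogenases were also mixed, with 8 of 17 higher in AGS and 4 in NCI-H1395, while the control libraries alone called 3 in AGS and 4 in NCI-H1395. Over all 6 libraries 70.6% of the aldehyde dehydrogenases tested were called, against 56.8% of all genes. ALDH2, the mitochondrial enzyme of ethanol metabolism, was at 75.6, 63.4 and 58.6 CPM in AGS against 3.85, 1.61 and 2.28 CPM (-4.73 ± 0.27), and ALDH3A1 at 9.43, 5.95 and 15.2 CPM against 0.112, 0.0448 and 0.246 CPM (-6.26 ± 0.61). ALDH1L2, a mitochondrial folate enzyme, was higher in NCI-H1395 at 9.15, 35.2 and 13.9 CPM against 0.812, 1.53 and 0.474 CPM (4.27 ± 0.51), as was ALDH3B1 (1.96 ± 0.27).

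MHC class I genes were called at a rate near that of all genes. Of 17 MHC class I and peptide loading genes 7 were higher in AGS, 3 in NCI-H1395 and 7 were not called (58.8% called). B2M, the invariant light chain, was at 437 to 532 CPM in NCI-H1395 and 664 to 695 CPM in AGS. HLA-C was at 15.5, 17.4 and 17.7 CPM in NCI-H1395 against 0.874, 0 and 0.296 CPM in AGS (5.53 ± 0.61), but HLA genes are polymorphic near-copies and reads could have been assigned among them or lost against the reference. TAP2, a subunit of the peptide transporter, was at 4.96, 2.87 and 4.07 CPM against 0.375, 0.368 and 0.355 CPM (3.39 ± 0.47). ERAP2, a peptide-trimming protease, was higher in AGS at 68.6, 70.7 and 61.4 CPM against 20.2, 18.7 and 12.3 CPM (-1.98 ± 0.23). MHC class II genes were at or near 0 in both lines, and of 3 tested CD74, the invariant chain, was higher in AGS at 1.56, 3.01 and 4.20 CPM against 0.781, 0.538 and 0.431 CPM, a call lost between the control libraries (adjusted p = 0.18).

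Outside the lists, the largest differences toward NCI-H1395 at 50 CPM or more were in genes with 0 or next to 0 counts in AGS. NT5E (hg38 chromosome 6, 85449584 to 85495791), which encodes the ectonucleotidase CD73, was at 424, 354 and 1443 CPM against 0 counts, at least 11306-fold higher and highest in ADAR siRNA 2. ELOVL5, a fatty acid elongase, was at 234, 174 and 256 CPM against 0 counts (at least 3559-fold), and QKI, an RNA-binding regulator of splicing, at 178, 156 and 130 CPM against 0 counts (at least 2550-fold). CTSL, the lysosomal protease cathepsin L, was at 105, 129 and 176 CPM against 0 counts (at least 2214-fold). ELOVL5, QKI and CTSL are broadly expressed in human tissues. PLAU, the urokinase plasminogen activator, was at 725, 295 and 1288 CPM against 2 counts. TMEM200A, ITM2C, CPNE8, INA, NIBAN1, MAGED1 and TSPYL5 completed the rule, each with 77.9 to 188 CPM in every NCI-H1395 library and 0 counts in AGS.

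Among the genes named toward AGS, MACC1, a regulator of MET, was at 137, 250 and 158 CPM against 0 counts in NCI-H1395 (at least 3420-fold higher). TNS4, a focal adhesion protein, was at 2222, 1100 and 1381 CPM against 0.279, 0.0448 and 0.123 CPM (-13.37 ± 0.36, adjusted p = 1.4e-09). APOBEC3B, a DNA cytidine deaminase, was at 175, 137 and 61.6 CPM against 0 counts (at least 2324-fold higher). C4BPB, SCEL, CST1, KLK6 and TMPRSS4 were at 59.5 to 179 CPM in every AGS library with 0 counts in NCI-H1395. SPRR2D, a cornified envelope protein with close copies, was at 102, 142 and 23.9 CPM against 0 counts (adjusted p = 0.0037), and its call was lost between the control libraries (adjusted p = 0.099) and without the control library of either line (0.12 in both) or ADAR siRNA 2 of NCI-H1395 (0.055).

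The control libraries of the 4 lines, scaled together, place these levels. Over 24195 genes the correlation of log2 CPM with the NCI-H1395 control was 0.884 for BT-549, 0.844 for MDA-MB-231 and 0.806 for AGS, as a description of single libraries that share 1 scaling. VIM was at 2380, 1270 and 1600 CPM in the controls of NCI-H1395, MDA-MB-231 and BT-549 and at 3.68 CPM in AGS. AXL was at 2720, 1400, 534 and 8.42 CPM in the same order. EPCAM was at 0.320, 12.3 and 0 CPM against 394 CPM in AGS, and HNF4A at 0.0534, 0 and 0 CPM against 83.2 CPM. In these genes AGS stood apart from the other 3 lines, but they were picked and other epithelial genes did not follow. KRT19 was at 0.267, 519 and 0.0505 CPM in the same order against 1030 CPM in AGS. KRT7 was at 4.38, 441 and 2.53 CPM against 19.1 CPM. NT5E, ELOVL5 and QKI were at 138 CPM or more in each line other than AGS. MAGEA4, in contrast, was at 495 CPM in NCI-H1395 and at 0 CPM in both breast lines, and TMEM200A at 161 CPM against at most 0.107 CPM. With 1 library a line these values have no replicate check.

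**Figure D5:**
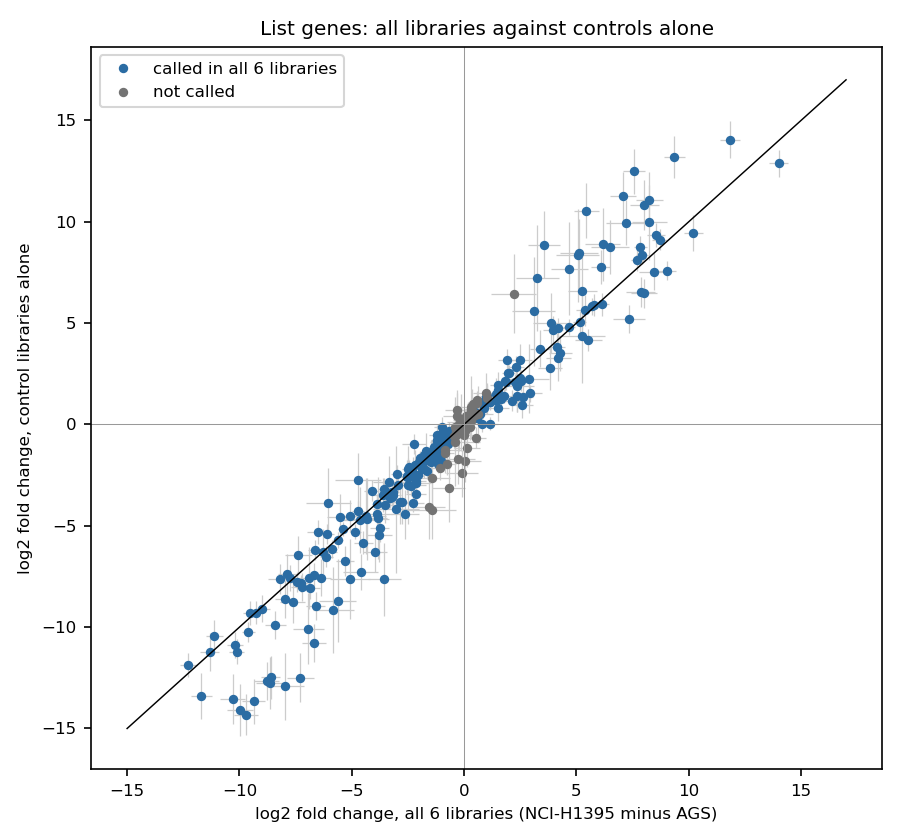
Each point is a list gene tested in both fits with counts in both lines, so genes at 0 in a line are not shown. Its fitted log2 difference is given over all 6 libraries (horizontal axis) and between the control libraries alone (vertical axis), both NCI-H1395 minus AGS. Bars are standard errors and the line marks equal values. Of 298 genes 284 have the same sign in both, and the points without a call over all 6 libraries lie mostly near 0.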

How the data were processed

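Poly(A) RNA was sequenced, per the labels' protocols, and the authors deposited whole-number counts for each gene. The submitters' processing notes name featureCounts 2.0.6, STAR 2.7.11a, fastp 0.23.4 and hg38, while the strand setting was not stated. Of 62702 lines, 3 broken ones of ANK2 were not used, and 0 count columns lacked a sample.

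The 6 libraries were fitted in R 4.3.3 with edgeR 4.0.16 (filterByExpr, TMM, robust quasi-likelihood, terms for line and treatment, 3 residual degrees of freedom). Errors after ± are standard errors of the log2 difference. The lone controls were contrasted in a fit of 8 groups to 12 libraries and taken to spread as the ADAR siRNA pairs do. Genes at 0 in a line were set at a floor of 3 counts over the group, and counting intervals cover 95%. DESeq2 1.42.0, other scalings and filters, a replicate block and leaving out each library were alternatives.

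The members and the 24 lists were chosen with earlier results of these data known. Named were ADAR, fixed lineage regulators, the 15 largest differences each way (called, 50 CPM or more in the higher line, libraries not overlapping) and the 4 smallest p per list. Others appear as markers, where a count was 5 or fewer, or were chosen after their values were seen. Some genes that met the rule are not reported here. In simulated data on 18568 genes, 45% of 2-fold and 88% of 4-fold differences were recovered, with 11 unchanged genes among 144 calls, above the nominal rate. For the controls alone, on 23959 genes, it was 7% and 59%, with 5 unchanged among 71, and for the interaction, on 23959 genes, 0% and 30%, with 9 unchanged among 39.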

Additional observations from a re-analysis of the deposited data

How the results depend on the processing

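No named gene that was called over all 6 libraries changed direction under any alternative run. Most named genes were chosen for size or small p in these same libraries. This outcome and the counts of named genes below were therefore largely set by that choice. Of the 10555 genes called, 10448 (99%) were also called with the replicate block, which gave 5834 and 5214 calls for NCI-H1395 and AGS. The replicate numbers are shared only as labels, with a correlation of library 2 minus library 1 between the lines of 0.154 across genes. The control libraries alone called 3528 and 2860 genes, with 1 library a side. For the interaction, where edgeR called 0 genes, DESeq2 called 12 and edgeR with no count filter 27, and the cause was not tested. Leaving out 1 library at a time gave 4635 to 5380 genes higher in NCI-H1395 and 4253 to 4700 in AGS, and at 4-fold or more 2470 to 2941 and 2043 to 2412.

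For 122 named genes and 1942 alternatives, 1915 kept direction and call, 17 (10 genes) lost the call, 2 gained it and 8 changed sign, all 8 in genes without a call. ABCA3 went to -0.042, AGER to 0.71 and MUC5B to -1.18 in the control libraries alone, and MUC5B to -0.19 in the average over 8 groups. Leaving out 1 library at a time gave -0.12 to 0.79 for MUC5B, negative without ADAR siRNA 2 of NCI-H1395 or either ADAR siRNA library of AGS, and -0.087 (without ADAR siRNA 1 of AGS) to 0.93 for CIITA. Depth limits genes under 10 counts in a library, and markers at 0 are bounded only by the floor.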

Other observations

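Genes that were on in all libraries of 1 line and off in all of the other were more often on in NCI-H1395. At 10 CPM or more in each library of 1 line and 0 counts in the 3 of the other, 189 genes (166 protein-coding) were on in NCI-H1395 and 43 (39 protein-coding) in AGS. The rule turns on single counts, and TNS4, with 8 counts in NCI-H1395, and MAGEA4, with 1 in AGS, missed it. Genes with any count numbered 25402 to 27472 in the NCI-H1395 libraries and 23741 to 25970 in those of AGS. What this difference in detection adds to the split was not tested. Among protein-coding genes with a mean of at least 10 CPM in NCI-H1395, 203 of 9466 (2.14%) had 0 counts in AGS, against 46 of 9275 (0.496%) the other way. The share at 0 in AGS was 5.94% on chromosome X, 4.75% on chromosome 8, 4.71% on chromosome 4 and 4.0% on chromosome 6, against 0.357% on chromosome 17 and 0 of 86 genes on chromosome 21.

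Runs of 50 neighbours were taken over 10436 tested protein-coding genes of the autosomes with a mean of at least 1 CPM in both lines. Genes at or near 0 in a line were thus left out, as was chromosome X. Of the 9358 overlapping runs those given here are the extremes. The median log2 difference lay between -0.92 and 0.834 from the 5th to the 95th percentile of runs. It was highest on chromosome 19, at 1.61 from 35629030 to 38332076 (RBM42 to KCNK6, 44 of 50 genes on the NCI-H1395 side, called or not) and at 1.60 from 40466241 to 43967709, and on chromosome 3 at 1.12 from 179148114 to 190659750 (hg38). It was lowest on chromosome 1, at -1.44 from 224356858 to 233295725 (CNIH4 to PCNX2, 48 of 50 on the AGS side) and -1.33 from 186311652 to 205285632, and on chromosome 14 at -1.27 from 35538352 to 54489025. The control libraries alone gave 1.36, 1.19, 1.05, -1.31, -1.10 and -1.15 for these runs. Zinc finger genes on chromosome 19 had 32 of 245 at 0 counts in AGS and 1 in NCI-H1395. Of them 105 (42.9%) were called higher in NCI-H1395 and 73 (29.8%) in AGS, against 30.1% and 26.8% of all genes. Zinc finger genes elsewhere had 13 of 264 at 0 in AGS and 1 in NCI-H1395, with 66 (25.0%) and 68 (25.8%) calls. The other protein-coding genes of chromosome 19 had 9 of 845 at 0 in AGS and 19 in NCI-H1395, with 379 (44.9%) and 197 (23.3%) calls. The share called higher in NCI-H1395 was thus similar in zinc finger and other genes of chromosome 19.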
